A study of Bos taurus with 22 samples.

Results

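Subcutaneous backfat of 6 Charolais (CHAR) steers was compared with that of 8 Angus (ANG) steers. These 14 steers were chosen by the breed given in the sample labels, out of 22 steers in all. The remaining 8 are Kinsella Composite (KC) steers, which the labels call Hereford x Angus crossbreds and for which the study's methods also give Charolais among the sires, and whose levels stand beside the comparison as a description. Within ANG there were 4 steers of high residual feed intake adjusted for backfat (H-RFI, the inefficient steers, RFIfat 0.75 to 1.64 kg) and 4 of low residual feed intake (L-RFI, the efficient steers, -1.13 to -0.75 kg). Within CHAR there were 3 H-RFI steers (0.69 to 1.10 kg) and 3 L-RFI steers (-1.03 to -0.96 kg). The steers came from the same ranch and had the same finishing diet, for which the study's methods list Rumensin in the pellets. They were born in either of a pair of years that the labels do not give by steer, and the part of birth year in the breed differences was not tested. The fat was taken after slaughter and frozen, so every value describes the end of the feeding period. The labels give no age for single steers, no batch and no sire, and the groups compared were not set by a treatment. Adipocytes are the cell type named in the labels, yet the sample was a piece of whole fat, which also holds vessels, nerves, immune cells and progenitors. In such tissue fewer cells of a type and less RNA per cell cannot be told apart.

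Subcutaneous fat of cattle is a main site of fatty acid synthesis. Acetate and glucose are turned into cytosolic acetyl-CoA, the fatty acids made from it are stored as triacylglycerol in lipid droplets, and hormones decide between storage and release. ANG is an early maturing breed that lays down fat readily, and CHAR is a later maturing, leaner breed. The comparison asks which genes of the fat differ between these breeds once the RFI group has been taken into account.

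Between 8224044 and 11536772 reads per ANG steer and between 8983641 and 12188113 reads per CHAR steer were counted on genes. In CPM (counts scaled to the library size) 3 counts, taken as the detection floor, amounted to 0.246 to 0.365 in these steers, a limit for counting error only. The libraries of the breeds differed in where their reads fell. Reads on genes made up 40.3% ± 1.26 (SD, n = 8) of the reads in ANG and 37.5% ± 2.05 (n = 6) in CHAR (exact permutation test, 2-sided p = 0.00799). Reads that fell on more than 1 gene (ambiguous reads) made up 0.370% to 1.32% in ANG and 1.201% to 2.16% in CHAR (exact permutation p = 0.0040). Reads on no gene made up 58.7% ± 1.08 in ANG (SD, n = 8) and 60.8% ± 1.89 in CHAR (n = 6, exact permutation p = 0.0253). The 3 ANG steers with the least ambiguous reads (ANG replicates 1, 6 and 7) stayed below 0.52%. On the second principal component of expression ANG replicate 8 (35.3) and CHAR replicate 6 (28.3) stood apart from the other 12 steers (-21.6 to 11.9). The first component, with 15.2% of the variance, ran from -27.4 to 4.11 in ANG and from -0.313 to 25.95 in CHAR. Whether the library measures had a part in the breed differences was not tested, and the counts of genes with these measures in the model are given with the results.

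**Figure D1:**
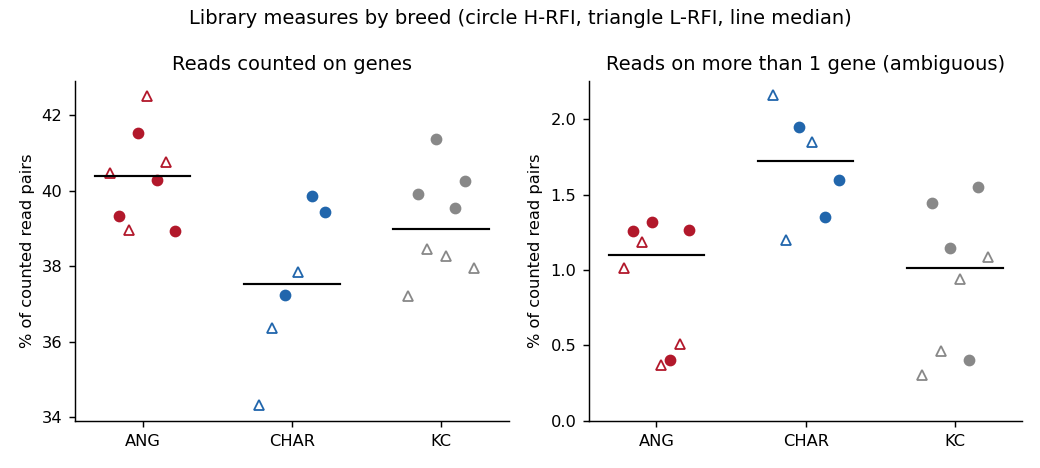
Share of reads counted on genes (left, % of reads, axis from 34) and share of ambiguous reads (right, % of reads, axis from 0) in each steer by breed, with circles for H-RFI, triangles for L-RFI steers and a line at the median. CHAR steers have the lowest shares on genes, down to 34.3%, and the highest ambiguous shares, up to 2.16%, and 3 ANG steers lie below 0.52% ambiguous reads.

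Few genes passed the FDR between CHAR and ANG fat in edgeR's quasi-likelihood test, and most of those that did were lower in CHAR. Genes that did not pass may still differ, since few steers were compared. Of 13725 genes tested, 19 were lower in CHAR by at least 2-fold (0.138% of the genes tested) and 6 were higher (0.0437%) at an FDR below 0.1 in edgeR's quasi-likelihood test. At any fold 89 genes passed (0.648%), 65 of them lower (0.474%) and 24 higher (0.175%), and their median absolute log2 fold change (log2FC, CHAR against ANG) was 0.64. DESeq2 passed 72 genes at both limits and 545 at any fold, and edgeR's likelihood ratio test 71 and 355. The median log2FC of all genes was -0.001, the median absolute log2FC was 0.13, and 150 genes (1.09%) differed by 2-fold or more before any test. At an unadjusted p below 0.05 there were 1958 genes (14.3%), 1056 of them lower in CHAR (7.69%) and 902 higher (6.57%), where 5% would be the share without any difference. The groups did not overlap for 33 genes that were higher in each CHAR steer than in each ANG steer and for 33 that were lower, 0.24% of the genes tested in each direction.

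The number of genes past both limits depended on single steers. With each steer left out in turn, it was lowest, 4, without CHAR replicate 4, and highest, 42, without ANG replicate 8. Without ANG replicates 1, 6 and 7 it fell to 3, with the share of ambiguous reads as a covariate to 1, and with the share of reads on genes as a covariate to 1. Of the 25 genes these last 3 fits kept 3, 1 and 0 past both limits. All 25 kept their direction in them, which is in part built in, since the same steers chose them. The median of their log2FC relative to the first fit was 0.957, 0.917 and 0.947, and the smallest was 0.820, 0.531 and 0.513. Without ANG replicate 8 and CHAR replicate 6 there were 27 genes, 16 of them among the 25. These 4 fits were chosen after seeing the data.

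**Figure D2:**
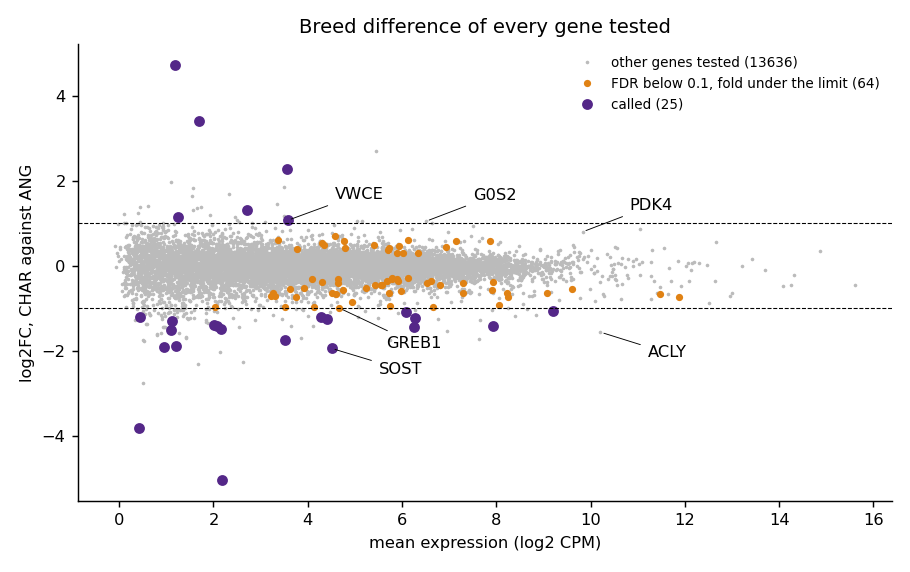
Log2FC of CHAR against ANG for every gene tested (y axis) against its mean expression in log2 CPM (x axis), with the 25 genes past both limits in purple, the 64 genes past the FDR alone in orange and dashed lines at a 2-fold difference. The 25 genes spread over low and high expression, and ACLY, PDK4 and G0S2 are labelled although they did not pass the FDR.

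The genes lower in CHAR spanned a wide range of expression. Their mean level in ANG ran from 1.53 to 765 CPM, 10 of the 19 had a mean below 10 CPM there, and their log2FC ran from -5.04 to -1.07 (median -1.42). The 6 genes higher in CHAR had mean levels of 3.13 to 21.1 CPM in CHAR and log2FC of 1.07 to 4.74. In 5 of the 19 lower genes and 2 of the 6 higher genes the ranges of the breeds did not overlap, beside 0.24% of all genes tested in each direction. A larger share is built in, since these genes were chosen for their difference in the same steers. A symbol was at hand for 242 identifiers, 236 of them tested, and these had been picked by the study for differences between H-RFI and L-RFI steers within breeds, which is another contrast in these same steers. Of the 25 genes only SOST and VWCE have a symbol, and GREB1 joins them among the 89 genes past the FDR at any fold. These 3 were singled out after their values were seen.

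GREB1 (ENSBTAG00000015402), a gene known for its induction by oestrogen, was lower in CHAR. It had 21.2, 30.5 and 50.5 CPM as the lowest, median and highest level in ANG and 12.8, 14.8 and 23.03 CPM in CHAR. Of the ANG steers 6 lay above every CHAR steer, and 5 of the 6 CHAR steers lay below every ANG steer. The log2FC was -0.99 ± 0.20 (SE, 95% interval -1.42 to -0.57, FDR = 0.0773), just short of the 2-fold limit. Fitted apart, H-RFI steers gave -0.93 and L-RFI steers -1.06. KC steers covered the range of both breeds, from 9.90 to 69.3 CPM with a median of 16.6.

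SOST (ENSBTAG00000013134) encodes sclerostin, a secreted inhibitor of Wnt signalling known from bone. It had 11.4, 31.0 and 59.0 CPM as the lowest, median and highest level in ANG and 4.61, 8.94 and 12.4 CPM in CHAR. All ANG steers but 1 lay above every CHAR steer. The log2FC was -1.94 ± 0.42 (SE, 95% interval -2.83 to -1.06, FDR = 0.0882), with -2.56 in the H-RFI fit and -1.37 in the L-RFI fit. In KC it ranged from 3.98 to 30.6 CPM with a median of 21.9.

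VWCE (ENSBTAG00000021568), which encodes a secreted protein with von Willebrand factor C and EGF domains, was higher in CHAR. The lowest, median and highest levels were 4.42, 6.34 and 15.8 CPM in ANG and 13.3, 14.6 and 29.6 CPM in CHAR. ANG replicate 8 was the only ANG steer that reached the range of CHAR. The log2FC was 1.07 ± 0.24 (SE, 95% interval 0.56 to 1.59, FDR = 0.0966), with 1.11 in the H-RFI fit and 1.04 in the L-RFI fit. KC steers reached further, from 10.3 to 77.5 CPM. In the RefSeq annotation no other gene overlaps GREB1, SOST or VWCE. Leaving out each steer in turn, the FDR stayed below 0.1 in 4 of 14 fits for GREB1, 3 for SOST and 4 for VWCE. With the share of reads on genes as a covariate the log2FC of VWCE was 0.55 (FDR = 0.707), that of GREB1 -0.83 (FDR = 0.610) and that of SOST -2.40 (FDR = 0.433). Over the 30 alternatives the FDR ran from 0.000628 to 0.811 for GREB1, from 0.000260 to 0.433 for SOST and from 0.00452 to 0.894 for VWCE.

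The largest differences belonged to genes that were near or at 0 in part of the steers, and the files give them by identifier alone. ENSBTAG00000038233 had 0 counts in 7 of the 8 ANG steers and 1.53 CPM in the other, ANG replicate 2. In CHAR it ran from 2.27 through a median of 4.86 to 6.97 CPM, so that the breeds did not overlap. A gene near 0 in ANG was tested only if nearly every CHAR steer was above 1 CPM. The filter thus built in part of this separation, here and for the next identifier. The log2FC was 4.74 ± 0.75 (SE, FDR = 0.0348), and it was 8.46 without ANG replicate 2, where every ANG steer is at 0 counts and the fitted value is no bound. ENSBTAG00000038938 had 0.111, 0.430 and 2.67 CPM as the lowest, median and highest level in ANG, again with ANG replicate 2 on top, and 3.46, 6.50 and 8.80 CPM in CHAR (log2FC 3.40 ± 0.48, FDR = 0.0244). Both identifiers stayed past the FDR in each of the 14 fits that left out a steer. Over the 29 alternatives with a value the FDR ran from 0.000918 to 0.676 and from 5.61e-08 to 0.676. The pair was above 1 CPM in the same 11 of 22 steers, which were all 6 CHAR steers, 1 ANG steer and 4 KC steers. In the 11 other steers the first was at 0 and the second at most 0.522 CPM.

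Among the genes lower in CHAR, ENSBTAG00000016063 split the ANG steers. It was above 1 CPM in 6 of 8 ANG steers, in none of the 6 CHAR steers and in 4 of 8 KC steers. The steers above that limit lay between 5.22 and 14.01 CPM and the others at or below 0.698 CPM, with nothing in between. The log2FC was -5.04 ± 0.98 (SE, FDR = 0.0673), although ANG replicates 7 and 8, at 0.305 and 0 CPM, lay within the range of CHAR. ENSBTAG00000016148 was a gene of low level, with 0.113, 1.98 and 3.31 CPM in ANG and 0 counts in 4 of 6 CHAR steers (highest 0.623 CPM, log2FC -3.83 ± 0.80, FDR = 0.0882). Its counts lay between 0 and 34, so its fold rests on few reads, and without CHAR replicate 1 the log2FC was -5.94. Both ENSBTAG00000016063 and ENSBTAG00000016148 passed the filter of the genes tested through ANG steers alone, which builds in part of their difference. Leaving out each steer in turn kept the FDR below 0.1 in 5 of 14 fits for ENSBTAG00000016063 and in 4 for ENSBTAG00000016148. Over 29 alternatives the FDR ran from 0.00102 to 0.676 for the first and to 0.797 for the second.

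**Figure D3:**
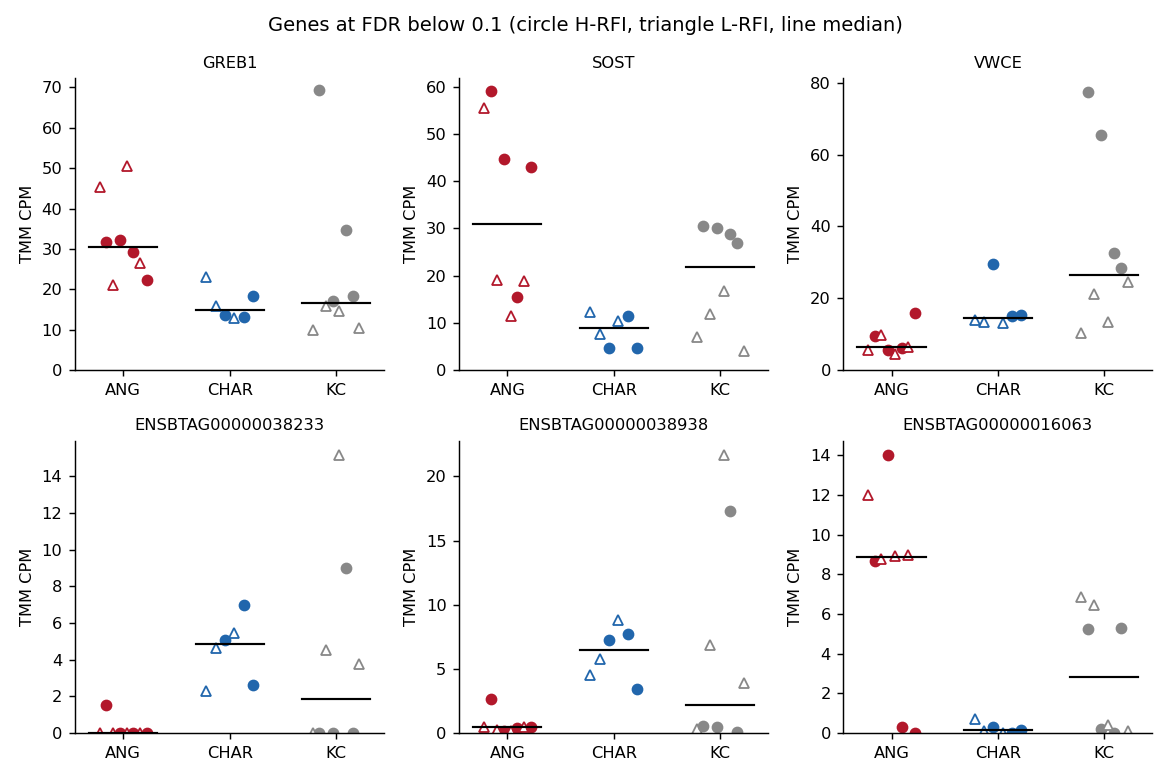
Level (TMM CPM, axes from 0) of GREB1, SOST, VWCE and 3 genes known by identifier alone in each steer by breed, with circles for H-RFI, triangles for L-RFI steers and a line at the median. ENSBTAG00000038233 is at 0 in 7 of 8 ANG steers and above 2 CPM in all CHAR steers, and KC steers fall on both sides.

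The genes of lipid synthesis with a symbol had lower medians in CHAR than in ANG with SREBF1 as the exception, and none passed the FDR of 0.1 in edgeR's quasi-likelihood test. Groups by role, here and further on, were formed after the values were known and are given by counts without a test. ACLY (ENSBTAG00000016740), ATP citrate lyase, splits citrate into the acetyl-CoA used for fatty acids. Its lowest, median and highest levels were 621, 1592 and 3839 CPM in ANG and 214, 528 and 1178 CPM in CHAR. Of the ANG steers 5 lay above every CHAR steer, and 4 CHAR steers lay below every ANG steer. The log2FC was -1.56 ± 0.44 (SE, 95% interval -2.50 to -0.62) with an FDR of 0.158, and the separate fits gave -1.60 (H-RFI) and -1.52 (L-RFI). DESeq2 gave an adjusted p of 0.0519 and edgeR's likelihood ratio test 0.0335, and over all 30 alternatives the FDR ran from 0.0335 to 0.811. Counts of this comparison were also simulated with a log2FC of 1. Of the genes past the FDR alone, without the fold limit, 22.8% were false with DESeq2 and 19.8% with the likelihood ratio test. With the quasi-likelihood test it was 9.73%.

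Slc25a1, as the identifier table spells it, is the mitochondrial carrier that exports citrate for ACLY. It had 461, 712 and 1261 CPM as the lowest, median and highest level in ANG and 164, 464 and 698 CPM in CHAR (log2FC -0.79 ± 0.31, FDR = 0.284). The separate fits gave -0.22 (H-RFI) and -1.40 (L-RFI), and the difference between these was not past the FDR (interaction FDR = 0.947). With the share of reads on genes as a covariate its log2FC was 0.12, so that its direction turned, and with the share of ambiguous reads it was -0.12. SREBF1, the transcription factor that drives lipogenic genes, had medians of 214 CPM in ANG and 225 CPM in CHAR, with wide overlap (log2FC -0.12, 95% interval -0.64 to 0.40, FDR = 0.860). Over the alternatives the log2FC of SREBF1 ran from -0.68 to 0.11. AACS, which activates acetoacetate for lipid synthesis, had medians of 141 and 97.6 CPM (log2FC -0.62 ± 0.28, FDR = 0.326). BDH1, which interconverts ketone bodies in mitochondria, had medians of 66.1 and 49.5 CPM (log2FC -0.48 ± 0.16, FDR = 0.201, and 0.0943 with DESeq2).

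Of the genes of sterol synthesis and efflux 4 of 4 were below 0 (50.2% of all genes), with a median log2FC of -0.66 and 2 at an unadjusted p below 0.05 (7.69% of all genes in that direction), and 0 passed the FDR of 0.1 in edgeR's quasi-likelihood test, while LSS passed it with DESeq2 (adjusted p = 0.0490) and with the likelihood ratio test (0.0719). LSS, lanosterol synthase, had 89.6, 153 and 260 CPM as the lowest, median and highest level in ANG and 48.2, 91.0 and 128 CPM in CHAR. Of the ANG steers 6 lay above every CHAR steer. Its log2FC was -0.86 ± 0.26 (FDR = 0.182, over the alternatives 0.0490 to 0.922). SQLE, squalene epoxidase, had medians of 17.4 and 11.8 CPM (log2FC -0.74 ± 0.34, FDR = 0.342). TM7SF2, a sterol reductase, had medians of 22.1 and 15.3 CPM (log2FC -0.59, FDR = 0.376), and ABCA1, which exports cholesterol from cells, had 281 and 231 CPM (log2FC -0.27, FDR = 0.663). Over the alternatives the log2FC of TM7SF2 ran from -0.88 to -0.15. The direction of ABCA1 turned between the separate fits, with -0.83 (H-RFI) and 0.27 (L-RFI, interaction FDR = 0.947). With the share of reads on genes as a covariate the log2FC was -0.83 for ACLY, -0.15 for AACS, -0.22 for LSS and -0.26 for SQLE. With the share of ambiguous reads as the covariate it was -1.65 for ACLY, -0.47 for AACS, -0.64 for LSS and -1.12 for SQLE, so that ACLY and SQLE moved away from 0 and the other 2 towards it. In the RefSeq annotation at least 1 other gene overlaps AACS, BDH1, LSS and SREBF1.

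Of 5 genes of fuel use 4 were above 0 (50.2% of all genes were below 0, median log2FC of the group 0.34) and 2 of them had an unadjusted p below 0.05 (6.57% of all genes in that direction), and of 3 lipid droplet genes 1 was above 0. None of these 8 passed the FDR of 0.1 in edgeR's quasi-likelihood test, while PDK4 passed it with DESeq2 (adjusted p = 0.0754) and with the likelihood ratio test (0.0997). PDK4 (ENSBTAG00000014069) encodes the kinase that shuts down pyruvate dehydrogenase and so spares glucose. Its lowest, median and highest levels were 355, 701 and 1051 CPM in ANG and 484, 1214 and 1741 CPM in CHAR. Of the CHAR steers 4 lay above every ANG steer, and the other 2 fell within the range of ANG. The log2FC was 0.80 ± 0.26 (SE, 95% interval 0.24 to 1.36, FDR = 0.206, over the alternatives 0.0754 to 0.846), with 1.15 in the H-RFI fit and 0.45 in the L-RFI fit. G0S2, an inhibitor of triacylglycerol lipase at the lipid droplet, had medians of 62.6 and 140 CPM (log2FC 1.05 ± 0.45, FDR = 0.314), and with the share of ambiguous reads as a covariate its log2FC was 0.24 (FDR = 0.997). PM20D1, a secreted enzyme that forms N-acyl amino acids, had medians of 8.36 and 12.03 CPM (log2FC 0.55 ± 0.21, FDR = 0.266, log2FC 0.33 without CHAR replicate 2), and SLC25A25, a mitochondrial ATP-Mg carrier, had 22.7 and 31.7 CPM (log2FC 0.34 ± 0.16, FDR = 0.354). The separate fits gave 0.94 (H-RFI) and 0.19 (L-RFI) for PM20D1 (interaction FDR = 0.947). Over the alternatives the log2FC of SLC25A25 ran from 0.08 to 0.48. CIDEA, a lipid droplet protein and the only one of 10 adipocyte markers listed that has a symbol here, had 19.99, 61.0 and 111 CPM in ANG and 18.9, 48.8 and 62.2 CPM in CHAR (log2FC -0.37, 95% interval -1.06 to 0.32, FDR = 0.645), and its direction turned with the share of reads on genes as a covariate (log2FC 0.25). Leaving out each steer gave -0.48 to -0.11 for CIDEA. The glucose transporter SLC2A1 lay between 15.2 and 234 CPM in ANG and between 8.89 and 272 CPM in CHAR, and 1 steer of CHAR, replicate 6, held the top of that range (log2FC -0.32 ± 0.70, FDR = 0.871, log2FC -1.46 without that steer). GFPT2, which feeds glucose into hexosamines, had medians of 165 and 190 CPM (log2FC 0.01, FDR = 0.993), and HSD17B11, a lipid droplet dehydrogenase, had 22.4 and 18.7 CPM (log2FC -0.24, FDR = 0.548). With each steer left out in turn, GFPT2 ran from -0.24 to 0.26 and HSD17B11 from -0.33 to -0.11.

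**Figure D4:**
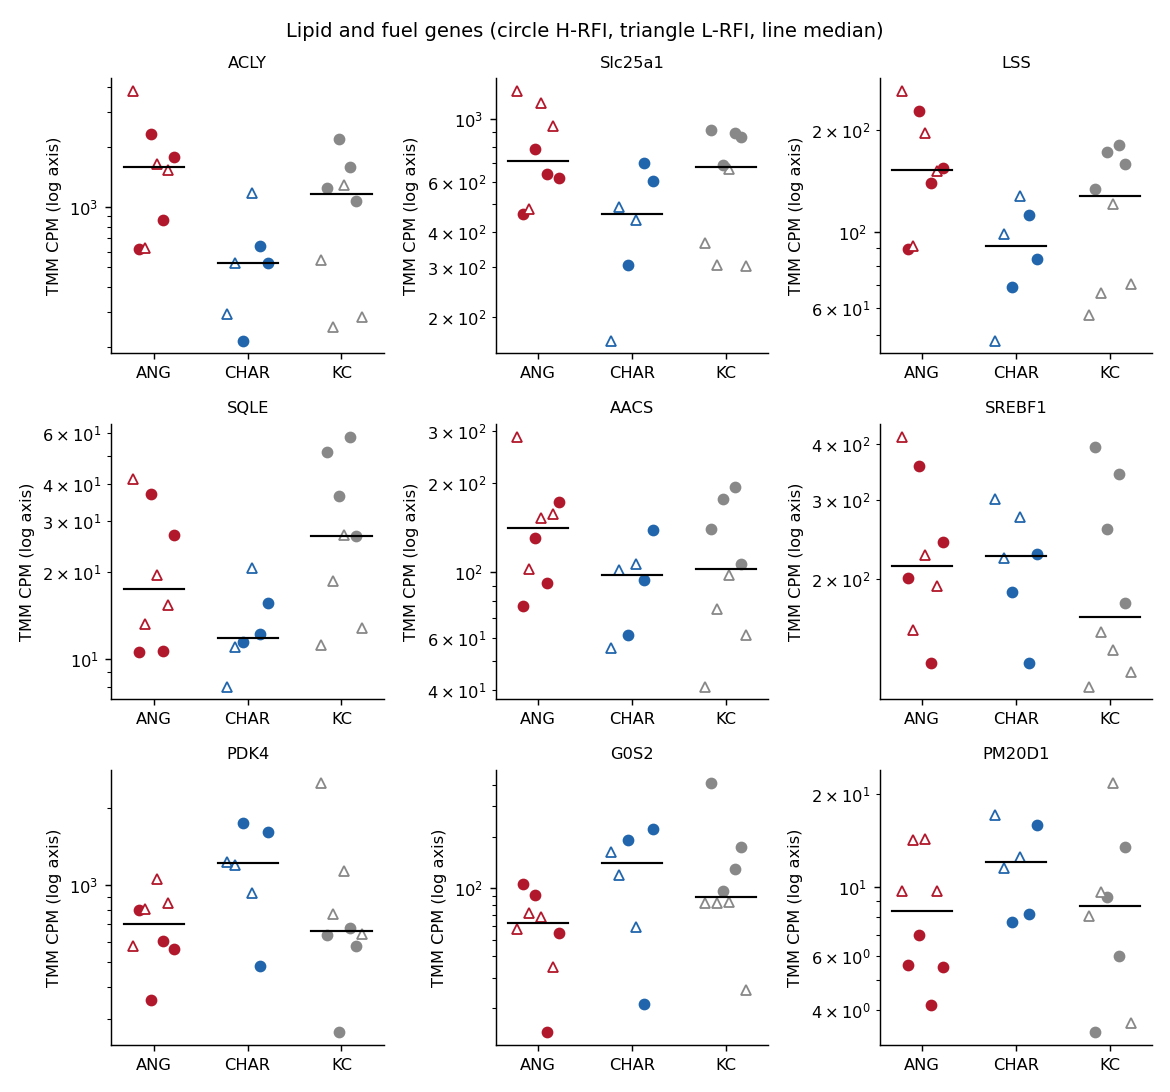
Level (TMM CPM, log axes) of 9 lipid and fuel genes in each steer by breed, with circles for H-RFI, triangles for L-RFI steers and a line at the median. The medians of ACLY, Slc25a1, LSS, SQLE and AACS are lower in CHAR than in ANG and those of PDK4, G0S2 and PM20D1 are higher, with overlapping steers in every panel.

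Of the 236 named genes tested, 3 (1.27%, beside 0.648% of all genes tested) passed the FDR of 0.1 at any fold and 36 (15.3%) had an unadjusted p below 0.05, near the 14.3% of all genes tested. Of these 36 genes 24 were lower in CHAR, 10.2% of the named genes beside 7.69% of all genes, and 12 were higher, 5.08% beside 6.57%. Over all 236 named genes the median log2FC was -0.10, and 59.7% were below 0, beside 50.2% of all genes.

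Wnt, BMP and Notch signals are known to steer progenitors towards or away from the fat lineage. Of 10 tested genes of this kind 8 were below 0 (50.2% of all genes, median log2FC of the group -0.61), 4 had an unadjusted p below 0.05 in the lower direction (7.69% of all genes) and 1, SOST, passed both limits (0.138% of all genes in that direction). SFRP4, a secreted Wnt antagonist, had 23.5, 74.6 and 156 CPM in ANG and 25.7, 36.05 and 68.4 CPM in CHAR (log2FC -0.88 ± 0.35, FDR = 0.283). The separate fits gave -1.76 (H-RFI) and -0.07 (L-RFI), a contrast that was not past the FDR (interaction FDR = 0.947). NKD2, an intracellular antagonist of the same pathway, had medians of 63.9 and 29.8 CPM (log2FC -0.78 ± 0.34, FDR = 0.312). The separate fits gave -0.06 (H-RFI) and -1.57 (L-RFI) for NKD2, again not past the FDR for their difference (interaction FDR = 0.947). FZD9, a Wnt receptor, had 1.17 and 0.660 CPM (log2FC -0.86 ± 0.39, FDR = 0.339). DLK1, a membrane protein that holds back adipogenesis, was above 1 CPM in 5 of 8 ANG steers and in 1 of 6 CHAR steers (log2FC -2.32 ± 1.21, FDR = 0.400). The separate fits for DLK1 gave -0.10 (H-RFI) and -6.25 (L-RFI), and the difference between these was not past the FDR (interaction FDR = 0.947). ANG replicate 1 had 23.6 CPM and the other ANG steers at most 5.90 CPM, and the log2FC was -1.58 without that steer and -5.87 without CHAR replicate 2. With the share of ambiguous reads or of reads on genes as a covariate it was -0.68 and -0.64. BMP7, an inducer of adipogenesis, had medians of 8.98 and 8.11 CPM (log2FC -0.02, 95% interval -0.94 to 0.91).

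Matrix genes went both ways. Of 13 tested 6 were above and 7 below 0, where 50.2% of all genes were below 0. In edgeR's quasi-likelihood test 0 passed the FDR of 0.1 (0.648% of all genes). An unadjusted p below 0.05 was reached by 0 (14.3% of all genes). THBS2, a matricellular thrombospondin, had medians of 62.5 and 83.9 CPM (log2FC 0.32, FDR = 0.515), and ITGA11, a collagen receptor, had 53.6 and 44.0 CPM (log2FC -0.51, FDR = 0.494). The direction of both turned between the separate fits (interaction FDR = 0.947 for each). THBS2 had 0.76 (H-RFI) and -0.14 (L-RFI), and ITGA11 had -1.05 (H-RFI) and 0.02 (L-RFI). Leaving out each steer gave -0.70 to -0.29 for ITGA11. Of 16 immune genes 9 were above 0 and 7 below (50.2% of all genes were below 0), with a median log2FC of 0.02. At an unadjusted p below 0.05, 1 was higher (6.57% of all genes) and 1 lower (7.69%). By edgeR's quasi-likelihood test 0 passed the FDR of 0.1 (0.648% of all genes). LRG1, a secreted glycoprotein of inflammation, had 0.779, 5.67 and 27.96 CPM in ANG and 0.349, 1.504 and 3.74 CPM in CHAR (log2FC -2.26 ± 0.75, FDR = 0.211, log2FC -1.46 without ANG replicate 7). LRG1 passed the FDR of 0.1 with DESeq2 (adjusted p = 0.0921) and with the likelihood ratio test (0.0878), and with the share of ambiguous reads as a covariate its log2FC was -0.38 (FDR = 0.995). IDO1, which degrades tryptophan, had medians of 24.5 and 42.0 CPM (log2FC 1.06 ± 0.48, FDR = 0.339, log2FC 0.49 without CHAR replicate 3). CFB, complement factor B, had medians of 195 and 184 CPM (log2FC 0.03, FDR = 0.977).

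BOLA-DQB, a class II antigen-presenting chain, was above 10 CPM in 3 of 8 ANG steers, 1 of 6 CHAR steers and 3 of 8 KC steers. The other 15 steers had at most 2.39 CPM, and 3 ANG steers had 0 counts. Of the ANG steers 3 lay below every CHAR steer and 1 CHAR steer lay above every ANG steer (log2FC 0.43, 95% interval -3.38 to 4.23, FDR = 0.943), and the mean was 10.05 CPM in ANG and 5.85 CPM in CHAR, so that the fitted value and the means differ in direction. The separate fits gave 5.49 (H-RFI) and -4.25 (L-RFI, interaction FDR = 0.878), and leaving out each steer gave -2.12 to 1.58. Class II genes have close relatives in the genome, and how reads shared with them were counted was not tested.

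Of 6 genes of hormone response and transport 4 were below 0 (50.2% of all genes) and 2 had an unadjusted p below 0.05 in the lower direction (7.69% of all genes). GREB1 passed the FDR of 0.1 (0.648% of all genes at any fold). TTR, a carrier of thyroid hormone and retinol, had 1.57, 4.62 and 22.5 CPM in ANG and 0.106, 0.850 and 5.07 CPM in CHAR (log2FC -2.02 ± 0.73, FDR = 0.240). The log2FC of TTR was -3.59 in H-RFI steers alone and -0.83 in L-RFI steers alone (interaction FDR = 0.947), and -0.25 with the share of ambiguous reads as a covariate. TF, the iron carrier transferrin, had medians of 154 and 267 CPM (log2FC 0.65 ± 0.46, FDR = 0.551), and GLP2R, a gut hormone receptor, had 0.881 and 1.097 CPM (log2FC 0.17, FDR = 0.881). The leptin receptor LEPR had medians of 1.75 and 1.84 CPM (log2FC -0.08, FDR = 0.955). Genes of ribosome biogenesis had log2FC from -0.63 (C18H19orf48) to 0.19 (UTP4), with a median of 0.07. Of these 6 genes 4 were above 0 and 2 below (50.2% of all genes were below 0). None was past an unadjusted p of 0.05 (14.3% of all genes). ANG replicate 8 held the highest level of ANG in all 6 and CHAR replicate 6 the highest of CHAR in all 6. Without ANG replicate 8 C18H19orf48 was at -0.33. With each steer left out in turn, the log2FC was 0.08 to 0.38 for DDX51 and 0.09 to 0.40 for UTP4. It crossed 0 for PPAN (-0.31 to 0.16), RRP9 (-0.02 to 0.39) and URB2 (-0.05 to 0.33), so their directions depended on single steers.

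Markers of other cell types overlapped between the breeds. The summed level of 6 smooth muscle genes (ACTA2, ACTG2, KCNMB1, DES, TPM2 and MRVI1) ran from 228 to 512 CPM in ANG and from 152 to 908 CPM in CHAR, with medians of 343 and 311 CPM. For 3 skeletal muscle genes (TTN, NEB and CHRNA1) it was 64.6 to 225 and 66.2 to 162 CPM. PRX, periaxin of Schwann cells, ran from 1.59 to 27.1 CPM in ANG and from 1.15 to 30.6 CPM in CHAR, with the highest levels in ANG replicate 5 and CHAR replicate 1. For 3 epithelial genes (PERP, GPRC5A and OCLN) the ranges were 9.68 to 44.9 and 15.7 to 48.2 CPM, with medians of 17.0 and 27.0 CPM. For 2 mast cell genes (TPSB2 and HDC) they were 6.74 to 46.9 and 4.98 to 38.5 CPM, with medians of 22.1 and 6.97 CPM. PI16, which marks fibroblast progenitors, had 71.9, 160 and 405 CPM in ANG and 53.5, 108 and 135 CPM in CHAR (log2FC -0.82 ± 0.33, FDR = 0.288). The part of these cell types in the breed differences was not tested.

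The breed difference was fitted again within each RFI group, in 3 CHAR and 4 ANG steers at a time that the fits do not share. Of all genes 60.2% had the same sign in both. At an unadjusted p below 0.05 there were 966 genes in H-RFI steers, 73.1% of them with the same sign in L-RFI steers, and 1681 genes in L-RFI steers, 73.2% of them with the same sign in H-RFI steers. Of the genes below that limit in both, 164 went the same way and 19 the opposite way. Across genes, which are not independent replicates and share their libraries, Pearson's r of the log2FC was 0.26. All 25 genes past both limits had the same sign in both groups, which is in part built in, since the 14 steers chose them. By itself the L-RFI fit passed 14 genes at an FDR below 0.1 and the H-RFI fit 0, with 0.128 as the smallest FDR of the latter.

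A breed difference that changed with the RFI group was not detected by edgeR. The interaction passed the FDR of 0.1 in 0 genes, with 677 genes (4.93%) at an unadjusted p below 0.05 and 4 genes at an adjusted p below 0.1 in DESeq2. The smallest FDR was that of KCNMB1, a subunit of smooth muscle potassium channels (interaction log2FC 1.299, FDR = 0.301). The separate fits gave -0.36 (H-RFI) and 0.94 (L-RFI), and another gene overlaps it in the RefSeq annotation.

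**Figure D5:**
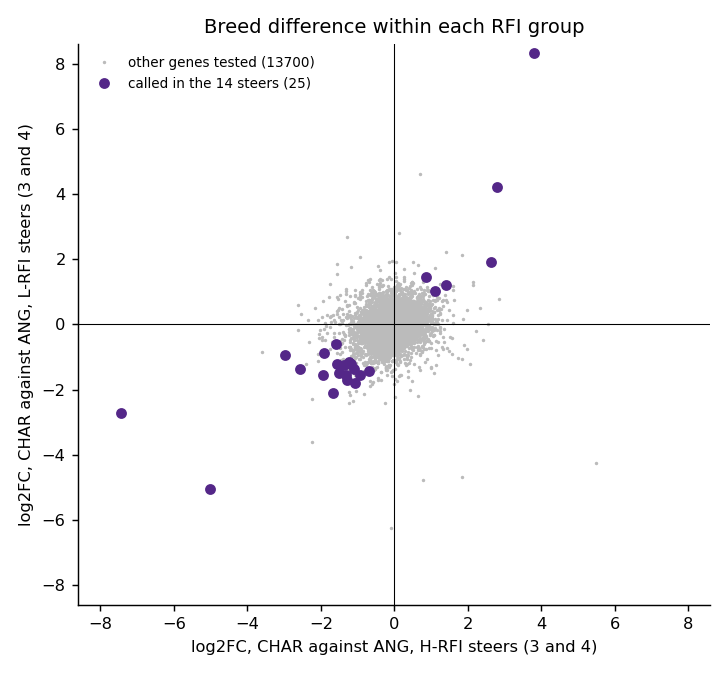
Log2FC of CHAR against ANG in L-RFI steers (y axis) against that in H-RFI steers (x axis), 3 CHAR and 4 ANG steers in each fit, for every gene tested, with the 25 genes past both limits in purple. The purple genes lie in the quadrants of equal sign, and the cloud of the other genes is centred on 0.

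KC steers, which took no part in the fit, fell on both sides of the breed pair. For the 19 genes lower in CHAR the mean of KC lay between the breeds in 10 and beyond ANG in 9, and for 14 it was nearer to ANG on a log scale. For the 6 genes higher in CHAR it lay between the breeds in 2, beyond ANG in 2 and beyond CHAR in 2. The position of KC was not counted over all genes tested. These genes were chosen for their difference between ANG and CHAR, so the counts describe them alone and nothing is concluded about KC. The number of expressed genes (CPM above 1) was 13531 ± 51.7 (SD, n = 8) in ANG and 13616 ± 106 (n = 6) in CHAR (exact permutation test, 2-sided p = 0.0739), and it was 13634 ± 102 (n = 8) in KC. With 1 count or more as the limit the difference, CHAR minus ANG, turned from 85.2 to -12.8 (exact permutation p = 0.990).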

How the data were processed

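Ribosomal RNA was removed from backfat RNA and stranded libraries were sequenced as read pairs. The submitters' processing notes name TopHat2 2.0.9, SAMtools 1.1, HTSeq 0.6.1 and the genome UMD3.1. The annotation version and the strand setting of the counting are not given in the sources used here. The authors deposited raw counts for 24616 Ensembl genes, with 5 summary lines that were kept out of library sizes. In the 14 ANG and CHAR steers 57.1% to 63.5% of the reads fell on no gene and 0.370% to 2.16% were ambiguous. The base of these shares is the reads on genes, on no gene or ambiguous, without the other summary lines.

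The genes tested had CPM above 1 in 6 or more of the 14 steers and entered edgeR's quasi-likelihood test (R 4.3.3, edgeR 4.0.16, limma 3.58.1) with TMM factors and the model breed plus RFI group. A call needed both a log2FC of 1 or more in size and an FDR (Benjamini-Hochberg) below 0.1. Levels are CPM on TMM library sizes, which are not scaled by gene length. Intervals are 95%. Nothing in the labels ties steers to a sire or pen, so p-values measure the spread between steers. On simulated data with 200 changed genes the test recovered 83.5% at a log2FC of 1 and 98.5% at 2 by the FDR alone, without the fold limit. Of the genes past that FDR 9.73% and 9.22% were false. Alternatives were RLE and upper quartile factors, DESeq2 1.42.0, the likelihood ratio test, limma-voom, other filters, covariates and steers, and leaving out each steer. Other steps ran in python 3.11.15 with scipy 1.17.1, pandas 2.3.3, numpy 2.4.6 and matplotlib 3.10.9.

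The members and gene lists were chosen with earlier results of these data known. Symbols came from a supplementary identifier table of the study. Overlap of genes was looked up in the RefSeq annotation of the build ARS-UCD2.0, from which no coordinates are given. The rule for named genes took called genes with a symbol, members of gene lists with the smallest p or else the highest level, interaction genes, and up to 2 identifiers without a symbol in each direction. Of 31 gene lists, 12 had no gene with a symbol, and the planned search for runs of neighbouring called genes could not be done, because the identifiers were not paired with positions. The role groups and the genes named beyond the rule were added after the values were seen. A few single results are not reported here.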

Additional observations from a re-analysis of the deposited data

Results flagged for a closer look

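In 218 groups of values (the genes described or listed, in 8 ANG or 6 CHAR steers, on a log2 scale) 26 held a steer far from the rest of its breed, where chance gives about 1 in 20. All values here are TMM CPM.

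ANG replicate 8 stood above the other ANG steers in AP3B2 (21.3), TEAD4 (9.78), ITGA5 (641), HAS1 (8.33), DDX51 (28.6), RRP9 (23.2) and URB2 (48.1). CHAR replicate 6 stood above the other CHAR steers in SLC2A1 (272, others at most 28.9), TEAD4 (15.9), TPSB2 (28.004), RRP9 (14.6) and PERP (4.47). These 2 steers are also the ones that stood apart on the second principal component.

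ANG replicate 7 was low in TF (12.3, others at least 93.7), KLF16 (0.814) and YDJC (0.203) and high in TTR (22.5). ANG replicate 5 was high in PRX of Schwann cells (27.1, others at most 3.96). ANG replicate 2 was high in ENSBTAG00000038233 (1.53, others 0) and ENSBTAG00000038938 (2.67, others at most 0.484). Single values were HOGA1 in ANG replicate 4 (34.8) and CXCL8 in ANG replicate 1 (4.60).

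In CHAR the single values were ENSBTAG00000016148 in replicate 1 (0.623), DLK1 in replicate 2 (3.37, others at most 0.174), VWCE in replicate 3 (29.6, others at most 15.4), CIDEA in replicate 4 (18.9, others at least 44.1) and TNFSF10 in replicate 5 (94.0).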

How the results depend on the processing

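The count of genes past both limits (25, with 6 higher and 19 lower in CHAR) stayed within 1.5 times under RLE and upper quartile factors, limma-voom, no filter, no RFI covariate, RFIfat in kg and all 22 steers in one fit. It was 72 (13 higher, 59 lower) with DESeq2 and 71 (14, 57) with the likelihood ratio test. It was 14 (3, 11) with CPM above 1 in all 14 steers, 11 (2, 9) in L-RFI steers, 0 (0, 0) in H-RFI steers with 966 genes at an unadjusted p below 0.05, and 6 (2, 4) at an FDR below 0.05. Settings chosen after seeing the data gave 3 (0, 3) without ANG replicates 1, 6 and 7, 1 (0, 1) with the share of ambiguous reads or of reads on genes as a covariate, and 27 without ANG replicate 8 and CHAR replicate 6. Leaving out each steer gave 4 to 42 genes, 2 to 11 higher and 2 to 31 lower, and 3 of the 25 genes were called in all 14 fits. At any fold the 89 genes became 59 with upper quartile factors, 545 with DESeq2, 355 with the likelihood ratio test, 57 with limma-voom, 44 without a filter, 48 with RFIfat in kg, 14 in L-RFI and 0 in H-RFI steers, 8 at an FDR below 0.05, 3 without ANG replicates 1, 6 and 7, 1 with either share as a covariate, and 5 to 188 when leaving out each steer. The interaction passed in 4 genes with DESeq2 and in 0 to 2 when leaving out each steer. The difference in expressed genes (85.2 at CPM above 1) was 105 at CPM above 0.5 (exact permutation p = 0.0360) and turned to -12.8 at 1 count or more (p = 0.990). Fewer steers or genes tested set part of these counts, and otherwise the cause was not tested. No paired analysis was possible because each steer has its own number in the labels. Depth limits genes near 3 counts, such as ENSBTAG00000016148.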
